A study of Saccharomyces cerevisiae with 18 samples.

Results

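Yeast strains in which the GAL1 promoter drives either SNU114 or DIB1 were compared with each other after 8 h in glucose, when that promoter is off in both. The comparison set the 3 Snu114 libraries against the 3 Dib1 libraries of that time point, 6 of the 18 libraries sequenced, so the medium and the time were the same on both sides. Per the labels, both strains were derived from the laboratory strain BY4742 and share mating type alpha and the alleles his3Δ1, leu2Δ0, met15Δ0 and ura3Δ0. The Dib1 strain carried PGAL1-YPR082C (YPR082C is DIB1) and LYS2, and the Snu114 strain carried PGAL1-YKL173w (YKL173W is SNU114) and lys2Δ0. All 6 libraries are labelled as grown in rich glucose medium (YPD) for 8 h. The same strains were also sampled after 4 h in YPD and after 6 h in rich galactose medium (YPGal), again with 3 libraries each, and these 12 libraries were used only where named. The design asks which genes and introns differ when a different protein of the spliceosome is withdrawn.

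The spliceosome removes introns from pre-mRNA in a fixed order of assembly steps. The U1 and U2 particles mark the 5′ splice site and the branch point, and a preassembled particle of U4, U6 and U5 (the tri-snRNP) then joins and is remodelled before the first cut. Dib1 is a small protein of the tri-snRNP that leaves when the spliceosome is activated, while Snu114, a GTPase belonging to the U5 particle, stays in contact with Prp8 and the helicase Brr2 through activation and disassembly. Yeast has few introns, nearly all in genes with a single intron, and many lie in the highly transcribed genes of ribosomal proteins. Unspliced RNA can therefore be followed gene by gene, as reads over the intron set against reads over the gene.

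Depth, in M (mega) gene reads, was 58.6, 20.6 and 17.1 M in the Dib1 strain and 21.9, 18.7 and 17.4 M in the Snu114 strain, listed in the order of replicates 1, 2 and 3, which holds for every trio of values given here. Whole reads were recovered from the deposited values and rescaled together, and levels are given as these normalised reads, which are not corrected for gene length. A difference is always Snu114 minus Dib1 on a log2 scale with its standard error, and a gene or intron is called where limma-trend gave a Benjamini-Hochberg adjusted p under 0.05, with every tested feature in the adjustment. Replicates 1 and 2 of each strain lay close together, and the third library stood apart in both. The standard deviation of the log2 difference between replicates 1 and 2 was 0.152 in the Snu114 strain and 0.124 in the Dib1 strain. With the third library it was 0.535 and 0.527 in the Snu114 strain and 0.318 and 0.332 in the Dib1 strain. Counts are therefore also given without both replicate 3 libraries, an alternative chosen after seeing the data. The labels do not say that replicates were separate cultures, so the p-values measure the spread between these libraries, which may be technical.

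The strains differed first in the genes placed under the promoter. DIB1, at chrXVI:704225-704656, had 263, 244 and 282 normalised reads in the Dib1 libraries and 1031, 1110 and 1250 in the Snu114 libraries, where it keeps its own promoter. The groups did not overlap, and the difference was 2.10 ± 0.13 (limma, adjusted p = 0.000214). SNU114, at chrXI:122517-125543, had 3396, 3515 and 2863 normalised reads in the Dib1 libraries and 1254, 1317 and 1607 in the Snu114 libraries. All 3 Snu114 libraries lay below all 3 Dib1 libraries, with a difference of -1.23 ± 0.14 (limma, adjusted p = 0.00598). Each depleted mRNA was thus still read at 23.3% (DIB1) or 42.7% (SNU114) of its level in the other strain. Protein levels were not analysed here. GAL1 itself, the galactokinase gene that the promoter normally drives, did not pass the test, with 238, 253 and 267 normalised reads in the Dib1 libraries and 264, 241 and 159 in the Snu114 libraries (-0.22, adjusted p = 0.580).

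The mating-type genes went against the labels. Cells of mating type a make a-factor and the receptor for alpha-factor, and cells of mating type alpha make alpha-factor and the receptor for a-factor. MFA2, an a-factor gene, had 24350, 23029 and 20140 normalised reads in the Dib1 libraries and 27.2, 31.1 and 36.8 in the Snu114 libraries. STE2, the alpha-factor receptor gene, had 17223, 16586 and 16817 against 149, 153 and 179. MF(ALPHA)1, the main alpha-factor gene, showed the opposite order, with 9.53, 13.5 and 29.7 against 91705, 81793 and 114450. All 8 a-specific genes were lower in the Snu114 strain, where 4.84% of all genes tested were called lower, and all 5 alpha-specific genes that could be tested were higher, where 4.24% of all genes were. HMLALPHA1 and HMLALPHA2, the remaining alpha-specific markers, were not tested because they had at most 2 reads in a library. Summed over each list, the a-specific genes reached 59754 to 61966 normalised reads in the Dib1 libraries and 1003 to 1077 in the Snu114 libraries, and the alpha-specific genes 3023 to 3636 and 116389 to 142045. The Dib1 libraries therefore carried the a programme although their label says alpha, and the Snu114 libraries carried the alpha programme of their label.

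**Figure D1:**
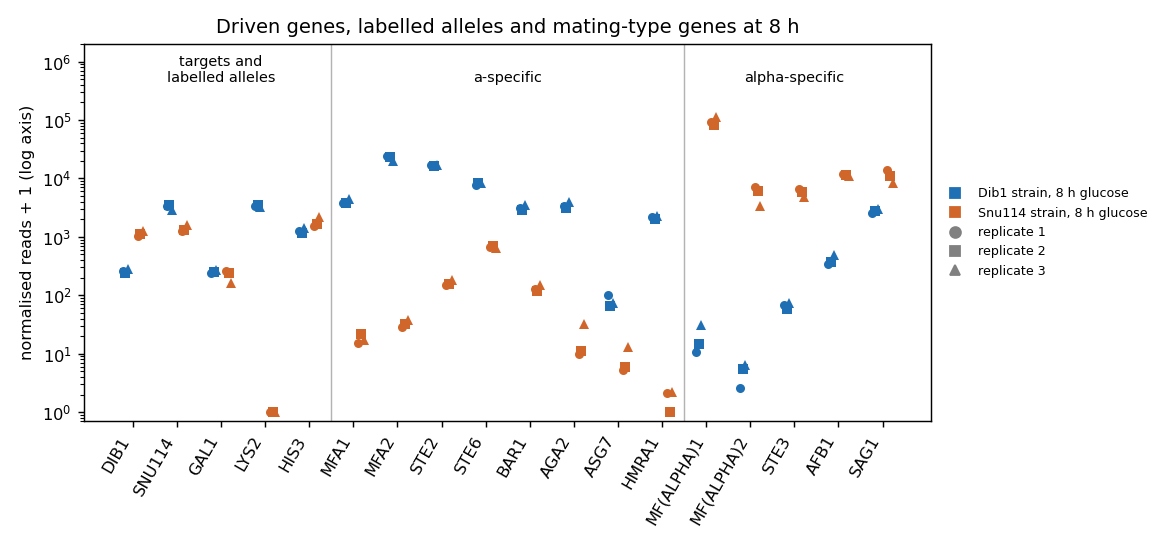
Normalised reads plus 1 (log axis) of the driven genes, GAL1, labelled alleles and mating-type genes in each of the 6 libraries after 8 h in glucose. Each point is a library, coloured by strain and shaped by replicate. DIB1 lies lower in the Dib1 libraries, SNU114 lies lower in the Snu114 libraries, a-specific genes such as STE2 lie higher in the 3 Dib1 libraries, and LYS2 has 0 reads in the 3 Snu114 libraries.

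Of the labelled alleles, LYS2, for the lysine pathway enzyme aminoadipate reductase, had 3369, 3530 and 3226 normalised reads in the Dib1 strain and 0 reads in each Snu114 library, at least 930-fold lower when 3 reads per library are taken as the floor. LEU2, URA3 and MET17 (MET15) had 0 reads in all 6 libraries. HIS3, of which the his3Δ1 allele keeps a part, had reads in both strains and did not pass the test (0.46, adjusted p = 0.119). The depleted gene, the LYS2 allele and the mating-type programme thus differ together between the groups, and their parts in any difference below cannot be told apart. No strain with both native promoters was among the libraries used.

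The introns that carry the main result are given 5′ to 3′ on the coding strand from the R64 assembly (sacCer3) as RefSeq holds it, in lower case, with the 5′ splice site, the branch-point heptamer and the 3′ splice site in capitals. They lie at chrII:110421-110505, minus strand (CMC2, 85 bases), chrXVI:138726-138864, plus strand (SAR1, 139 bases), chrXIII:99260-99375, minus strand (TUB1, 116 bases), chrXIV:366036-366157, plus strand (YSF3, 122 bases), chrX:469184-469263, minus strand (REC107, 80 bases) and chrVI:75840-76091, plus strand (HAC1, 252 bases, no capitals).
CMC2: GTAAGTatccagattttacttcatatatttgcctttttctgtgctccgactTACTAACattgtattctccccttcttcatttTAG
SAR1: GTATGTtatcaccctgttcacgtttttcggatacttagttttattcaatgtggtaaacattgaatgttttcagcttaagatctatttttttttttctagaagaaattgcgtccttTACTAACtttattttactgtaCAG
TUB1: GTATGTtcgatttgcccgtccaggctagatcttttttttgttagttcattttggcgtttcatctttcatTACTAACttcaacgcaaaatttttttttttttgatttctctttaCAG
YSF3: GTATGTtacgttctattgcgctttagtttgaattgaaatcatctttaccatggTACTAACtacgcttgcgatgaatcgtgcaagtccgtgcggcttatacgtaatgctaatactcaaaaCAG
REC107: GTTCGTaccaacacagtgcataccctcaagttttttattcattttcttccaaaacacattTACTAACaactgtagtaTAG
HAC1: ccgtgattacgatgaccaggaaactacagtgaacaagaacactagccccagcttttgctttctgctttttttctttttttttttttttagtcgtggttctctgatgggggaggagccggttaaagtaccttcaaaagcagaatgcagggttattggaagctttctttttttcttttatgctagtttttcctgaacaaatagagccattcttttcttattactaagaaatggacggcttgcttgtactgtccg

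The 6 introns above are shown because they span the range of the comparison. CMC2, SAR1 and TUB1 were called lower in the ratio of intron to gene reads, and YSF3, REC107 and HAC1 did not pass that test. YSF3, REC107, HAC1 and SAR1 were chosen after their values were seen. The first 5 share the branch-point heptamer TACTAAC and end in TAG or CAG, and REC107 alone of them opens with GTTCGT rather than GTAAGT or GTATGT. The HAC1 intron is not a substrate of the spliceosome. It is cut by the kinase and nuclease Ire1 in the unfolded protein response and joined by tRNA ligase, and it serves here as an intron that neither depleted protein is known to process. CMC2 encodes a mitochondrial protein needed for cytochrome oxidase, SAR1 the GTPase that starts COPII vesicles, TUB1 the major alpha-tubulin, YSF3 a small subunit of the U2-bound SF3b complex, and REC107 a protein of meiotic recombination.

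Introns were read less in the Snu114 strain than in the Dib1 strain almost throughout. Of 250 introns tested, the intron-to-gene ratio was lower in the Snu114 strain for 201 (80.4%) and higher for 0 with limma. Without adjustment, at a p under 0.05, it was higher for 0 as well, and edgeR with gene reads as the offset called 199 lower and 0 higher. The difference was below 0 for 243 of 250, with a median of -0.97 and quartiles of -1.28 and -0.66. The 2 groups did not overlap for 212 introns (84.8%), all of them lower. Without both replicate 3 libraries, 223 were lower and 4 higher. The median intron had 34.5, 34.6 and 34.8 intron reads per 100 gene reads in the Dib1 libraries and 15.8, 17.3 and 17.7 in the Snu114 libraries. In each single Snu114 library, 229 or 230 of the 250 introns lay below every Dib1 library. Because an intron and its gene differ in length, and intron reads exceeded gene reads in 3 or 4 hosts of a library, the ratio does not give the share of molecules left unspliced. It needs no scale between libraries, and it can be compared between strains for the same intron.

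All intron reads together made up 2.62%, 2.53% and 2.57% of gene reads in the Dib1 libraries and 1.36%, 1.45% and 1.65% in the Snu114 libraries. The shares were 2.57% ± 0.0470 and 1.49% ± 0.149 (SD, n = 3 each), with no overlap. The difference of -1.09 percentage points had an exact two-sided permutation p of 0.1, the smallest that 3 libraries against 3 can give. Counting error was far smaller than this: the exact binomial 95% interval was 2.62% to 2.63% in the deepest library and 1.65% to 1.66% in the third Snu114 library. Split by host, the mean share was 1.94% in the Dib1 strain and 1.17% in the Snu114 strain for introns of ribosomal protein genes, and 0.638% and 0.314% for those of the other genes, again without overlap. In the other groups the share was 0.528% ± 0.0136 in the Dib1 strain and 0.592% ± 0.0510 in the Snu114 strain in galactose, and 1.77% ± 0.185 and 0.535% ± 0.0225 at 4 h (SD, n = 3 each). The mean share of the Dib1 strain was thus the lower one in galactose and the higher one at both glucose times, and the mean of the Snu114 strain at 4 h was not above its own in galactose.

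The largest ratio differences were spread over ribosomal protein genes and others. RPL16B, for a protein of the large subunit, had 23.8, 25.5 and 21.0 intron reads per 100 gene reads in the Dib1 libraries and 5.35, 5.70 and 3.76 in the Snu114 libraries, a difference of -2.27 ± 0.20. CMC2 had 23.2, 23.0 and 24.3 against 5.84, 7.80 and 2.64 (-2.24 ± 0.36). In both, all 3 Snu114 libraries lay far below the Dib1 libraries. CPT1, for cholinephosphotransferase (-2.06), RPL20A (-2.06), RPL21A (-2.00), RPL40A, for a ubiquitin fused to a ribosomal protein (-1.92), YPR098C, an uncharacterised gene (-1.87), and RPL2A (-1.80) completed the 8 largest. Their adjusted p ranged from 0.00017 (RPL16B) to 0.0013 (YPR098C) with limma.

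Introns named for their history in splicing work gave smaller but called differences. ACT1, for actin, a standard splicing reporter, had 19.7, 18.5 and 22.0 intron reads per 100 gene reads in the Dib1 libraries and 5.04, 5.49 and 10.1 in the Snu114 libraries (-1.61 ± 0.26). TUB1 had 3.13, 3.53 and 3.52 against 1.39, 1.72 and 1.06 (-1.31 ± 0.23), and the minor alpha-tubulin gene TUB3 stood at -0.93 ± 0.15. The intron of TEF4, for an elongation factor subunit, gave -1.47, and that of RPL22A -1.31. YRA1, for an mRNA export factor whose inefficiently spliced intron takes part in its own regulation, gave -0.83 ± 0.20. MUD1, for a protein of the U1 particle, gave -0.73 (adjusted p = 0.0150), a call lost without the third Dib1 library (-0.59, adjusted p = 0.0632). DBP2, for an RNA helicase with a long autoregulatory intron, did not pass (-0.77, adjusted p = 0.0842). Its Snu114 libraries were 4.41, 4.99 and 13.0, and without the third of them the difference was -1.26.

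**Figure D2:**
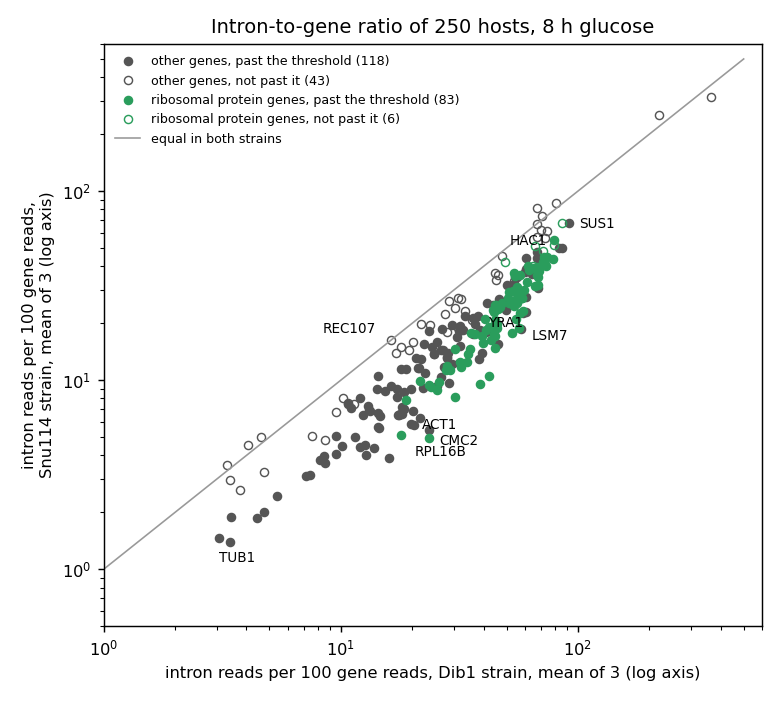
Intron reads per 100 gene reads (log scales), mean of 3 libraries, in the Dib1 strain (horizontal) and the Snu114 strain (vertical) for the introns tested; colours give the host class and filled points passed the threshold. Of ribosomal protein introns 83 were called lower and 6 were not, of the others 118 were and 43 were not, and nearly all points lie below the diagonal of equal ratios.

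**Figure D3:**
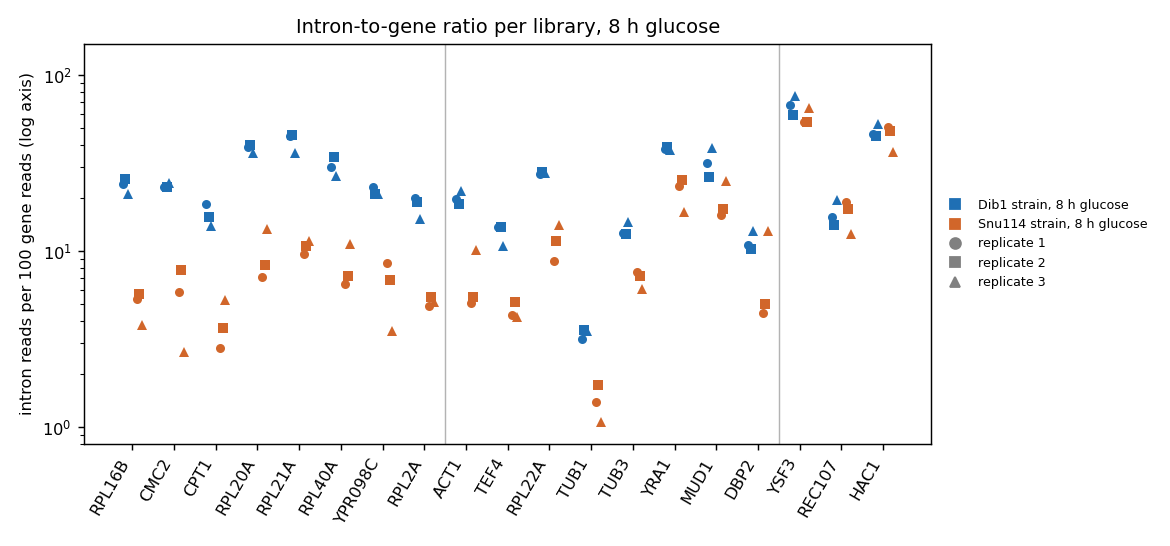
Intron reads per 100 gene reads (log scale) in each of the 6 libraries for the 8 largest differences, the introns named for their history and YSF3, REC107 and HAC1; each point is a library. The Snu114 libraries lie below the Dib1 libraries for RPL16B to RPL2A, while the groups overlap for REC107 and HAC1.

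Among classes of host, ribosomal protein genes and the rest shared the direction. Of 89 ribosomal protein introns, 83 were lower, with a median of -1.10, against 118 of 161 other introns with a median of -0.86. The large subunit (50 of 53, median -1.12) and the small subunit (33 of 36, median -1.10) were alike in this count. Median intron reads per 100 gene reads were 50.2, 49.1 and 50.3 in the Dib1 libraries and 19.9, 21.0 and 28.0 in the Snu114 libraries for ribosomal protein introns, and 24.9, 22.9 and 26.0 against 13.2, 13.3 and 11.4 for the others. The third Snu114 library was thus the highest of its strain for ribosomal protein introns and the lowest for the others. Without both replicate 3 libraries the medians were -1.31 for ribosomal protein introns and -0.76 for the others. RPS7A showed that library plainly, with 23.5, 25.2 and 71.7 in the Snu114 libraries against a Dib1 mean of 64.3. ECM33, RPS21A, RPL27A and RPL36A, like RPS7A chosen after their values were seen, had the same pattern and were not called.

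Copies of some duplicated ribosomal protein genes differed unequally. In 41 pairs with both introns tested, the A copy had the more negative difference in 27 and the B copy in 14, and 3 pairs were more than 1 log2 unit apart. The gap between the copies did not overlap between the strains in 16 pairs. Of the 3, RPL16A stood at -0.62 beside -2.27 for RPL16B, and RPL36A at -0.37 beside -1.41 for RPL36B. RPL36A is also one of the introns in which the third Snu114 library stood apart. The copies are near-identical over their exons, and how the authors' counting divided shared reads is not given in the sources used here, so these pairs are uncertain.

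Other classes were described by the same counts. Of 19 introns in secretory pathway genes 18 were lower (median -1.07), with SEC14, for a phospholipid transfer protein, at -1.79 and SAR1 at -1.78, where SAR1 had a mean of 20.3 intron reads per 100 gene reads in the Dib1 strain and 5.83 in the Snu114 strain. Of 19 introns in cytoskeleton and cell cycle genes 16 were lower (median -1.11), among them COF1, for the actin-severing protein cofilin, and PFY1, for profilin. Of 13 introns in genes of RNA processing 11 were lower (median -0.88), from LSM7, for a subunit of the U6-binding Lsm ring, at -1.63, to SUS1, for a histone deubiquitination and export factor, at -0.43. Of 10 introns in ubiquitin pathway genes 9 were lower (median -0.88), and of 8 hosts of intronic snoRNAs 7 were (median -1.29). SEC14, SAR1, COF1, PFY1, LSM7 and SUS1 were chosen after their values were seen. The share of all introns called lower, 80.4%, lies near most of these counts.

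Introns of meiotic genes formed the exception by count of ratio calls. None of the 7 tested (SRC1, REC102, MND1, HOP2, AMA1, REC114 and REC107) was called lower, with a median of -0.39, and 0 were at an unadjusted p under 0.05 or with edgeR. Without both replicate 3 libraries 1 was called lower. Most of these introns had few reads, with means of 5.83 (AMA1), 14 (REC102), 17.3 (MND1 and REC114) and 47.2 (HOP2). REC107 and SRC1 had means of 257 and 423. By intron level, SRC1 (-1.56, limma, adjusted p = 0.00779) and HOP2 (-0.74, limma, adjusted p = 0.0435) were called lower, and the rest of the 7 were not called. REC107 had a mean of 16.3 intron reads per 100 gene reads in the Dib1 strain and 16.2 in the Snu114 strain, a difference of -0.01 ± 0.22 (adjusted p = 0.962). Some meiotic introns are known to need Mer1, a splicing activator made in meiosis, which vegetative cells lack. The HAC1 intron had 46.0, 44.7 and 52.9 intron reads per 100 gene reads in the Dib1 libraries and 50.7, 48.3 and 36.6 in the Snu114 libraries, groups that overlapped (-0.09, adjusted p = 0.696). By level, the HAC1 intron was called lower (-1.29, limma, adjusted p = 0.0234), beside a HAC1 mRNA difference of -1.20 (limma, adjusted p = 0.0518). YSF3, for the SF3b subunit, stood at -0.22 (adjusted p = 0.240). That these ratios missed the threshold does not show that they were equal.

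Introns with the usual splice signals were lower more often by count. Of 150 introns with both the 5′ splice site GTATGT and the branch heptamer TACTAAC, 133 were lower (median -1.07), and of 9 with neither, 3 were (median -0.78). By the branch alone the counts were 172 of 199 with TACTAAC (median -1.01) and 22 of 38 with another heptamer (median -0.73), and by the 5′ splice site alone 152 of 179 with GTATGT and 42 of 58 with another. By length the counts were 79 of 100 under 120 bp, 32 of 39 from 120 to under 300 bp and 83 of 98 of at least 300 bp, with medians of -0.89, -0.96 and -1.03. HAC1, whose intron is not a substrate of the spliceosome, was counted in the 9, the 38, the 58 and the 39, and was not called. Length, splice signals and host class overlap, since ribosomal protein introns are mostly long, and no test of these classes against each other was made.

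The introns' own levels gave the same direction with fewer calls. On the scale of the gene reads, 151 of 254 introns (59.4%) were lower in the Snu114 strain and 2 (0.787%) were higher, YLR464W at 0.90 and RPL18B at 0.74 (limma), 60.2% in all. The level of the ACT1 intron differed by -1.52 and that of the RPL22A intron by -0.52. Some introns with a called ratio were not called by level. They include TUB1 (-0.76, limma, adjusted p = 0.0529), YPR098C (-0.90, 0.0691), PFY1 (-0.37, 0.361) and RPL16A (0.17, 0.453). The mRNAs of these hosts were called higher, and more gene reads lower the ratio by arithmetic. This does not hold for every such intron: MUD1 had a called ratio without a called level (-0.59, limma, adjusted p = 0.145), and its mRNA was not called. These levels rest on the scale taken from all genes. Scaled instead by the introns themselves, which removes what most introns share, 11 were lower and 4 higher, and RPL22A stood at 0.26. Without the first Dib1 library 66 were lower, and without the second 93.

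The mRNAs of the hosts moved much less than their introns. Of 89 ribosomal protein genes with an intron, 7 were higher and 1 lower (median 0.40). Of the 49 without an intron, 1 was higher and 0 lower (median 0.42), and the sets were not tested against each other. Scaling by total gene reads gave 13 higher and 0 lower of the 89. Of 173 other hosts, 18 were higher and 7 lower, with a median of 0.07, where 4.24% of all genes were higher and 4.84% lower. TUB1 mRNA had 5105, 5151 and 4985 normalised reads in the Dib1 libraries and 8257, 7715 and 6457 in the Snu114 libraries, a difference of 0.55 ± 0.12 (limma, adjusted p = 0.0365). PFY1, for profilin, was higher by 0.95 and NOG2, for a GTPase of large subunit assembly, by 0.74. YRA1 mRNA was lower, with 21246, 21965 and 20067 normalised reads against 12459, 12567 and 9723 (-0.87 ± 0.15), and SRC1, whose spliced forms encode inner nuclear membrane proteins, was lower, at -0.98. Gene reads can include intron reads, so a host's mRNA and its ratio are not independent. Without both replicate 3 libraries 75 of the 89 intron-containing and 45 of the 49 intronless ribosomal protein genes were called higher. In that setting 1558 of all 5831 genes were called higher.

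Across the genome, 5831 genes were tested, of which 247 (4.24%) were higher and 282 (4.84%) lower in the Snu114 strain, 9.07% in all, with a median difference of 0.01. The groups did not overlap for 913 genes higher (15.7%) and 978 lower (16.8%). These counts rest strongly on single libraries. They were 16 higher and 27 lower without the first Dib1 library, 15 and 25 without the second, 178 and 209 without the third, 86 and 94 without the first Snu114 library, 31 and 49 without the second, and 909 and 869 without the third. Without both replicate 3 libraries they were 1558 and 1596. Of the 84 named genes that were called, 23 kept the call in every alternative, among them DIB1, SNU114, LYS2, 12 of the 13 mating-type genes tested (all but ASG7), GSC2, PHM7, CDC39, MOT1 and SPS100. The other named genes keep their direction but lose the call in at least 1 alternative, most often without the first or the second Dib1 library. Differences of single genes below are to be read with this in mind.

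**Figure D4:**
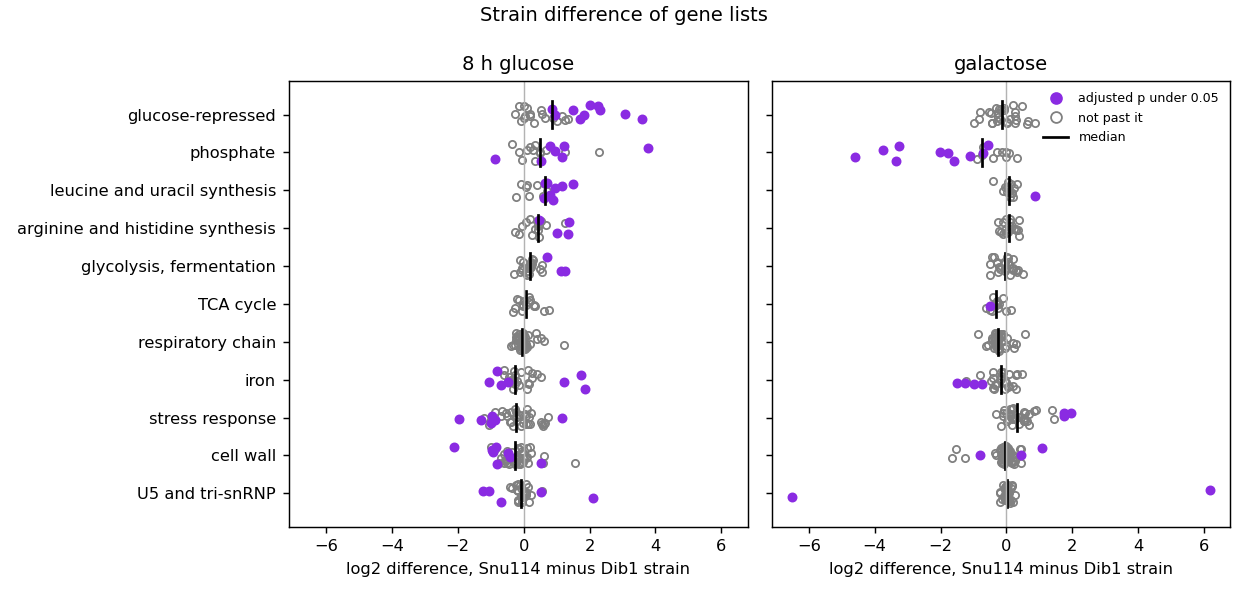
Log2 difference (Snu114 minus Dib1) of each member of the gene lists after 8 h in glucose (left, 6 libraries) and in galactose (right, 18-library fit); each point is a gene, filled points have an adjusted p under 0.05 and the line is the list's median. Glucose-repressed genes have a median of 0.87 at 8 h and -0.12 in galactose, and phosphate genes 0.50 and -0.73.

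A part of the genes that glucose represses was higher in the Snu114 strain, with both strains in glucose for the same time. Of 28 tested, 10 were higher and 0 lower, with a median of 0.87, where 4.24% of all genes were higher and 4.84% lower. Without both replicate 3 libraries 18 of the 28 were higher, beside 1558 of all 5831 genes. PCK1, for the gluconeogenic enzyme phosphoenolpyruvate carboxykinase, had 121, 95.5 and 119 normalised reads in the Dib1 libraries and 530, 2057 and 2300 in the Snu114 libraries, a difference of 3.60 ± 0.53 (limma, adjusted p = 0.0122). The groups did not overlap, and the Snu114 libraries themselves differed several-fold. ADY2, for an acetate transporter, had 47.3, 52.8 and 125 against 206, 775 and 1220 (3.07 ± 0.67, adjusted p = 0.0367). JEN1, for the lactate transporter, was higher by 1.83. The remaining called members were FDH1, MAL12, POT1, MLS1, REG2, ADH2 and ACS1, named after their values were seen, with differences from 0.85 (ACS1) to 2.32 (FDH1). MAL12 has a near-identical copy, MAL32, and its value is uncertain. With the trend with gene length removed, 5 of the 28 were called higher. The call of PCK1 is lost without the first Dib1 library (3.66), the second Dib1 library (3.49) or the second Snu114 library (3.30). FBP1, for the gluconeogenic fructose bisphosphatase, and ICL1, for isocitrate lyase of the glyoxylate cycle, did not pass, at 1.15 and -0.13. HXT5, a hexose transporter gene expressed when growth is slow, was the single called gene of 24 in hexose transport and sensing (1.47). Of 17 genes of the TCA cycle and 38 of the respiratory chain, 0 were called by limma or edgeR. At an unadjusted p under 0.05, 5 and 4 of them were higher, and DESeq2 called 4 and 2 higher. Both settings also pass more of all genes, so these counts alone do not set the lists apart. Of 26 genes of glycolysis and fermentation 3 were higher: PDC6 (1.25), ADH5 (1.14) and GPD2 (0.72).

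Phosphate starvation genes, targets of the factor Pho4, were higher in part as well. When phosphate is short, Pho4 enters the nucleus and turns on phosphate transporters, secreted acid phosphatases and the polyphosphate polymerase. Of 20 tested, 6 were higher and 1 lower, with a median of 0.50, where 4.24% of all genes were higher and 4.84% lower. Without both replicate 3 libraries the counts were 14 and 2, beside 1558 and 1596 of all 5831 genes. PHO89, for a sodium-coupled phosphate transporter, had 77.9, 86.5 and 280 normalised reads in the Dib1 libraries and 1062, 1489 and 3107 in the Snu114 libraries (3.77 ± 0.57, limma, adjusted p = 0.0132). Its replicate 3 library was the highest of both strains. PHO5, for the main secreted acid phosphatase, had 468, 536 and 818 against 1803, 1280 and 1172 (1.24 ± 0.25, adjusted p = 0.0287). SPL2, for an inhibitor that lowers low-affinity phosphate uptake, had 193, 205 and 263 against 703, 491 and 338 (1.16 ± 0.27, adjusted p = 0.0446, and 0.0664 with the replicate block). PHO11 (0.94), VTC3 (0.81) and VTC4 (0.51) were the other higher members. PHM8, for a phosphatase, was lower, at -0.87. The high-affinity transporter gene PHO84 did not pass, with 9043, 9753 and 13918 normalised reads against 13626, 10614 and 17559, and neither did PHM6 (2.29, adjusted p = 0.138, and 0.0131 with the replicate block), whose replicate 3 Snu114 library stood at 3096 beside 592 and 427. PHO4 itself stood at -0.04. PHO89 loses its call without the first Dib1 library (3.43), the second (3.51) or the second Snu114 library (3.87), and PHO5 without the first Dib1 library (1.07), the second (1.17), the first Snu114 library (1.05) or the second (1.30). PHO11 has a near-identical copy, PHO12, so its reads are uncertain.

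Promoter windows of called phosphate genes were read from the genome. They lie at chrII:430952-431251, minus strand (PHO5) and chrVIII:375101-375400, minus strand (SPL2), R64 assembly from RefSeq, read 5′ to 3′ towards the gene.
PHO5: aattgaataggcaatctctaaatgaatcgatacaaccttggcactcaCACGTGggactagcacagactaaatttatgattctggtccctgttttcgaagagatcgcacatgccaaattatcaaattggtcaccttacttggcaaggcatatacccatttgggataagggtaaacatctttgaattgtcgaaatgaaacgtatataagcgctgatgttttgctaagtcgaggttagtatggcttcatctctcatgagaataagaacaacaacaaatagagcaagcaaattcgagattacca
SPL2: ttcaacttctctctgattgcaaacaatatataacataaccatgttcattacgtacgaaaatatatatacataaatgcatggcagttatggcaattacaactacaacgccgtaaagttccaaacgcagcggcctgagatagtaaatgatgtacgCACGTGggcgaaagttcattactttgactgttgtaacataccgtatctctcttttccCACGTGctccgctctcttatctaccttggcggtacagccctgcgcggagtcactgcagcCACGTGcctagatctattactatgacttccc

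The 300 bases before the start codons of PHO5 and SPL2 are shown because these 2 genes were called and hold the motif CACGTG, the core that Pho4 binds, which is in capitals. It was searched on both strands, reads the same on both, and lies at 253 bases from the start codon in PHO5 and at 147, 90 and 31 bases in SPL2. In that window 9 of the 20 phosphate genes hold it, against 3.56% of the 6007 promoters read. The windows of PHO89 and PHO84 hold no match of these letters.

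Genes of amino acid and pyrimidine synthesis were higher in part. In leucine, isoleucine, valine and uracil synthesis 8 of 17 were higher and 0 lower (median 0.66), and in arginine and histidine synthesis 4 of 20 were higher and 0 lower (median 0.45). Among all genes tested, 4.24% were higher and 4.84% lower. URA10, for an orotate phosphoribosyltransferase, had 348, 299 and 650 normalised reads in the Dib1 libraries and 973, 1181 and 1347 in the Snu114 libraries, which did not overlap. BAT2, for the cytosolic branched-chain transaminase, was higher by 1.18 and HIS1 and HIS4, for enzymes of histidine synthesis, by 1.34 and 1.38. HIS4 loses its call without the first Dib1 library (1.33), the second (1.25) or the second Snu114 library (1.40). Both strains are labelled leu2Δ0, ura3Δ0 and his3Δ1. GCN4, for the activator of many of these genes, stood at -0.27 (adjusted p = 0.623) as mRNA, and its output is set mainly by translation. In lysine synthesis, where the strains differ by the LYS2 allele, LYS2 was the single called gene of 11.

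In the lists of stress and cell wall genes more members were lower than higher. Of 38 stress-response genes 5 were lower and 1 higher (median -0.22), and of 49 cell wall genes 7 were lower and 1 higher (median -0.25). Over all genes tested, 4.84% were lower and 4.24% higher. PHM7, for a membrane protein of unknown function, had 2366, 2396 and 2491 normalised reads in the Dib1 libraries and 901, 535 and 501 in the Snu114 libraries (-1.95 ± 0.22, limma, adjusted p = 0.00621). XBP1, for a stress-induced repressor, was lower, at -1.29, while GND2, for a minor phosphogluconate dehydrogenase, was higher by 1.17. GSC2, for the stress-induced catalytic subunit of glucan synthase, had 19713, 20685 and 18810 against 4915, 4537 and 4312 (-2.11 ± 0.11, adjusted p = 9.5e-05). SCW10, for a wall glucanase, was lower, at -0.96. Of 29 iron regulon genes, 3 were higher and 4 lower: the ferric reductase genes FRE4 (1.86) and FRE5 (1.75) were above, and the multicopper oxidase gene FET3 (-0.81) and the copper transporter gene CCC2 (-1.06) lay below. Without both replicate 3 libraries the stress list held 10 higher and 14 lower, beside 1558 higher and 1596 lower of all 5831 genes.

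Few mRNAs of the splicing machinery were called apart from SNU114 and DIB1 themselves. Of 32 genes of the U5 particle and the tri-snRNP, 2 were higher and 3 lower, DIB1 and SNU114 among them, where 4.24% and 4.84% of all genes were. PRP8, for the scaffold of the catalytic centre and the partner of Snu114, had 11355, 12117 and 10262 normalised reads in the Dib1 libraries and 5293, 4609 and 6346 in the Snu114 libraries (-1.06 ± 0.15, limma, adjusted p = 0.00990). BRR2, for the helicase that unwinds U4 from U6, was lower, at -0.69, and PRP31, which holds U4 and U5 together, was higher by 0.53 (adjusted p = 0.0439, and 0.0576 with the replicate block). Of 45 genes of the U1, U2 and Prp19-associated complexes, RSE1, for a large SF3b subunit, was the single one called (-0.77). In RNA decay NRD1 (-0.84), XRN1 (-0.69) and DHH1 (-0.49) were lower of 40 tested, and in mRNA export YRA1 (-0.87) and THO2 (-0.47, adjusted p = 0.0491, and 0.0639 with the replicate block) were lower of 13.

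Many of these lower genes are long, and gene length moved with the difference over the whole genome. The 188 genes of at least 4000 bp had a median of -0.46, with 79 lower and 0 higher, while 1473 genes from 500 to under 1000 bp had a median of 0.08. Against the mean of the 6 libraries, the long genes stood at 0.22, 0.28 and 0.20 in the Dib1 libraries and at -0.17, -0.35 and -0.22 in the Snu114 libraries, so all 3 libraries of each strain shared the sign. When a smooth trend with length was removed, 182 genes were higher and 190 lower, and the long genes had a median of -0.05 with 17 lower and 5 higher. PRP8 (-0.49, adjusted p = 0.0633), BRR2 (-0.16) and XRN1 (-0.32) then lost their calls, as did THO2, and RSE1 (-0.45), GSC2 (-1.63), CDC39, for the scaffold of the Ccr4-Not complex (-0.83), and MOT1, for a remover of TATA-binding protein (-0.85), kept theirs. RNA integrity values were not among the data used, and the part of RNA quality in the length trend was not tested.

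**Figure D5:**
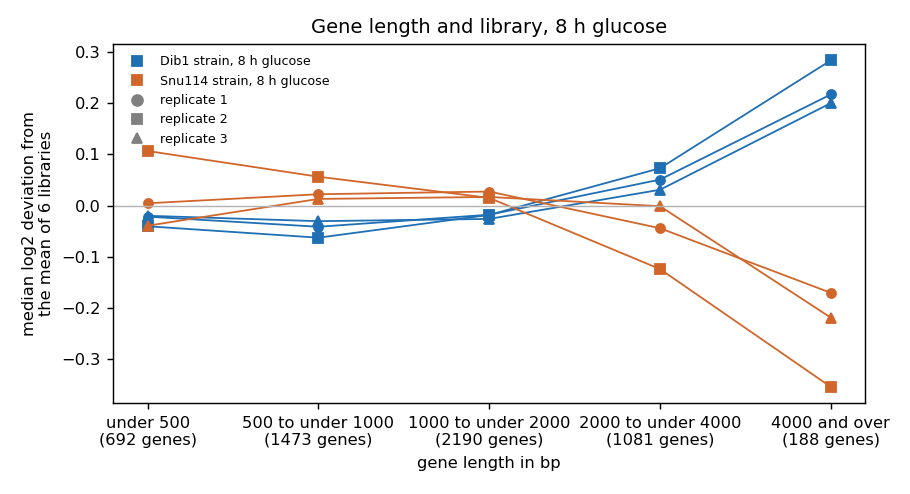
Median log2 deviation from the mean of the 6 libraries (vertical) in 5 classes of gene length in bp (horizontal), 1 line per library after 8 h in glucose, with marker shapes for the replicates. The 3 Dib1 libraries lie between 0.20 and 0.28 and the 3 Snu114 libraries between -0.35 and -0.17 for the 188 genes of 4000 bp and over.

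Some genes of mating and of the haploid state that are not markers of mating type were called too. Of 22 pheromone-response genes 5 were higher and 2 lower, the lower ones being STE2 and ASG7, which are also a-specific markers, and of 13 haploid-specific genes 5 were higher and 1 lower. Among all genes tested, 4.24% were higher and 4.84% lower. FUS1, for a cell fusion protein, had 462, 457 and 651 normalised reads in the Dib1 libraries and 1187, 1122 and 1417 in the Snu114 libraries (1.26 ± 0.17, limma, adjusted p = 0.0102). PRM6, for a pheromone-regulated potassium transporter, was higher by 1.87 at a low level of 5.39 to 27.4 normalised reads. FUS3, for the kinase of the mating pathway, was higher by 0.84, and STE5, for its scaffold, was lower, at -0.54. HO, for the endonuclease of mating-type switching, had 758, 814 and 1039 against 2143, 1976 and 1885 (1.21 ± 0.14, adjusted p = 0.00668). In galactose the order of HO was reversed, with 3235, 3242 and 3030 against 1648, 1565 and 1688 (-0.96, adjusted p = 0.0493).

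Promoter windows of a-specific genes were read in the same way. They lie at chrXIV:352114-352413, plus strand (MFA2) and chrVI:82280-82579, plus strand (STE2), R64 assembly from RefSeq, read 5′ to 3′ towards the gene.
MFA2: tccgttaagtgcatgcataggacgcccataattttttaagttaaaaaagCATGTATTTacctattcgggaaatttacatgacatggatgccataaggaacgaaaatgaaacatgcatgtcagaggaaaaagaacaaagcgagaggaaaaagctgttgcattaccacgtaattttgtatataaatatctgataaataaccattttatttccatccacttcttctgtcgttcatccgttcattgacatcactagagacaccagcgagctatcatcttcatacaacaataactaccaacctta
STE2: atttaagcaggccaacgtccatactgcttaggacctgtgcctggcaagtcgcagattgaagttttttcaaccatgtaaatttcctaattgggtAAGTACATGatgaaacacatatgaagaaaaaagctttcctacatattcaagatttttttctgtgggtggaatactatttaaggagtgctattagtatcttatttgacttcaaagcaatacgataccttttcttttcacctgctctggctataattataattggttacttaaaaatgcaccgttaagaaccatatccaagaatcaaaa

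The 300 bases before the start codons of MFA2 and STE2 are shown because the data bear on them through the mating-type difference. Capitals mark CATGTNNTT, a match to part of the operator through which alpha cells repress a-specific genes, searched on both strands and found on the reverse strand in STE2. In this window 5 of 8 a-specific genes hold it, against 4.41% of all promoters read.

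Of the largest differences outside these lists, SPG4, for a protein needed to survive at high temperature in stationary phase, had 124, 84.3 and 315 normalised reads in the Dib1 libraries and 643, 1135 and 3160 in the Snu114 libraries (3.14 ± 0.66, limma, adjusted p = 0.0337). OPT2, for an oligopeptide transporter, was higher by 2.27. TSA2, for a stress-inducible thioredoxin peroxidase, was higher by 1.77 in the redox list, where 2 of 33 were higher and 0 lower. The shares over all genes tested were 4.24% higher and 4.84% lower. SPS100, for a spore wall protein, had 980, 880 and 733 against 227, 187 and 167 (-2.16 ± 0.17, adjusted p = 0.00134). RIM4, for an RNA-binding protein of meiosis, and SGA1, for a sporulation glucoamylase, were lower, at -1.57 and -1.41. The TSA2 and SPG4 values in the third library of each strain were the highest of that strain.

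To separate what arose in glucose from what already differed in galactose, the strain difference at 8 h was set against the strain difference at 6 h in galactose in a single fit of all 18 libraries. With the promoter active in galactose, the strain differences of DIB1 and SNU114 were -6.50 and 6.17. There, 41 of 5803 genes (0.707%) were higher and 55 (0.948%) lower in the Snu114 strain. The difference of differences was above 0 for 211 of 5826 genes (3.62%) and below 0 for 212 (3.64%), 7.26% in all. These counts were 368 and 411 with the replicate block, and 215 and 133 when libraries were scaled by their total gene reads. Of the 188 genes of at least 4000 bp, 53 lay below 0 and 1 above, with medians of -0.08 in galactose and -0.46 at 8 h. The trend with gene length was not removed in this fit. The difference of differences was below 0 for 153 of 250 introns (61.2%) and above 0 for 0 with limma (1 above 0 with the replicate block). The median intron ratio differed between strains by 0.01 in galactose and by -2.00 at 4 h, so that in this median the strains lay furthest apart at 4 h. By host class, the median in galactose was 0.28 for ribosomal protein introns and -0.08 for the others. The difference of differences was below 0 for 84 of 89 ribosomal protein introns and for 69 of 161 others. RPL22A and RPL18B had a higher ratio in the Snu114 strain in galactose, at 1.11 and 1.00. RPS7A, RPL27A, RPS21A and RPL36A were also above 0 there, at 0.638, 0.447, 0.285 and 0.257, and were not called. At 8 h the RPL22A ratio was called lower (-1.31), while that of RPL18B was not called (-0.25, limma, adjusted p = 0.227). Leaving out replicate 1 of all groups gave 88 introns below 0, with 23 genes above and 14 below. Without replicate 2 there were 50 introns, with 8 genes above and 5 below, and without replicate 3 there were 138 introns, with 203 genes above and 181 below.

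Phosphate genes made the largest turn between the 2 conditions. In galactose 10 of the 20 were lower in the Snu114 strain and 0 higher, with a median of -0.73, and 12 had a difference of differences above 0 and 1 below. PHO84 had 8493, 19925 and 8536 normalised reads in the Dib1 libraries in galactose and 763, 238 and 549 in the Snu114 libraries (-4.60 ± 0.39), and the 2 strains overlapped at 8 h (difference of differences 4.94, adjusted p = 0.000148). PHO89 had 1281, 3017 and 1151 against 248, 136 and 125 in galactose (-3.34), the opposite order from 8 h (7.10 ± 0.80, adjusted p = 0.000159). SPL2 and PHO5 turned likewise, from -3.75 and -2.03. For PHO84, SPL2 and PHO5 the strain difference in galactose was larger in size than the one at 8 h. PCK1 differed by 0.26 in galactose, where its Snu114 libraries ranged from 280 to 2440 normalised reads. SPS100 and NCA3, for a protein linked to mitochondrial ATP synthase expression, were higher in the Snu114 strain in galactose (1.23 and 1.65) and lower at 8 h (-2.16 and -1.27). DIB1 and SNU114 had the largest values of all, 8.59 and -7.41, as each is driven by the GAL1 promoter in 1 strain only.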

How the data were processed

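Polyadenylated RNA of 18 yeast libraries was sequenced as paired reads after a strand-marking library preparation, per the labels' protocols. The submitters' processing notes name Trimmomatic, STAR, HTSeq, DESeq2 and the sacCer3 build, without versions, and the strand setting of the counting is not given in the sources used here. The authors' deposited tables hold, for genes and for introns, a signal per library: the read count divided by 1 size factor. Per the file headers, their means are averages of technical repeats. Every value in the 18 gene columns (100%) was a whole multiple of its library's smallest positive value within 0.001, so whole reads were recovered. There were 6596 gene features and 284 intron hosts, of which 5914 and 281 were found in R64. Blank lines with no values, 4 per library, were left out. The deposited fold changes and p-values were not used.

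Reads of the 6 libraries were divided by median-of-ratios size factors, and log2(value + 1) was tested with limma-trend (limma 3.58.1, R 4.3.3) for genes with a mean of at least 10 reads. The pseudocount understates the change of low genes. Intron ratios, log2 of intron over gene reads with 0.5 added to each, used hosts with means of at least 5 intron and 20 gene reads. Adjusted p follows Benjamini and Hochberg, across every feature in a test. The total intron share was compared with an exact two-sided permutation test, and its exact binomial intervals cover counting error only, since reads without molecular identifiers are not independent molecules. On simulated data with the spread of these libraries, calls were made for 25.4% of genes simulated with a 1.5-fold change, 65.7% at 2-fold and 97.0% at 4-fold, and 3.10% of the calls were false (5831 genes simulated). For 250 intron ratios these were 5%, 65% and 100%, and 8.11% of the calls were false. In that simulation intron and gene reads were drawn independently, most introns were unchanged and changes went in either direction. Its limma trend followed the mean ratio instead of the mean intron reads. In the real data most introns moved in the same direction, so these rates do not measure the power or the false calls of the ratio test. Alternatives were edgeR 4.0.16 and DESeq2 1.42.0 on the recovered reads, other scales, pseudocounts and filters, all 18 libraries in 1 fit, removal of the trend with gene length, the replicate block and each library left out. Replicates 1 and 2 carry the names A and B of 1 experiment and the third libraries carry dated names. The replicate block takes the numbers to pair the libraries. Deviations from the group means of libraries with the same number correlated at 0.220, 0.360 and 0.368 over 5225 genes. Unlike numbers of replicates 1 and 2 also correlated, at 0.273 and 0.307, while unlike numbers with replicate 3 gave values from -0.369 to -0.269. These values set replicates 1 and 2 apart from replicate 3 and do not show a pairing by number. Named genes were the driven and labelled genes, the mating-type markers, the 12 largest non-overlapping differences each way above 10 CPM, at most 2 called members of a list in each direction, the 8 largest intron ratio differences with 8 introns of known interest, and the 8 largest differences of differences each way. Members, lists and tests were chosen with earlier results of these data known. Of the pairs of ribosomal protein genes, 1 pair is not reported here.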

Additional observations from a re-analysis of the deposited data

Results flagged for a closer look

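The strain difference at 8 h in glucose was tested against the strain difference in galactose over all 18 libraries. For genes, 211 had a difference of differences above 0 and 212 below 0 (limma, adjusted p under 0.05, 5826 tested). Among the 188 genes of at least 4000 bp, 53 lay below 0 and 1 above, without removal of the trend with gene length. For intron-to-gene ratios, 0 lay above and 153 below 0 of 250 tested, and 0 lay above at an unadjusted p under 0.05. By list, 12 of 20 phosphate starvation genes lay above 0 and 1 below, and 9 of 28 glucose-repressed genes lay above 0 and 0 below. Of 38 stress-response genes 10 lay below 0, among them CTT1, for cytosolic catalase (-2.26), and DDR2, a multistress response gene (-2.10). Their cause was not tested.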

How the results depend on the processing

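Of the 84 named genes called, 23 kept their call in every alternative, as did 14 of 15 intron ratios, 4 of 12 intron levels and 8 of 16 differences of differences. The direction of each kept in all alternatives except the level of the RPL22A intron, at 0.26 with size factors of the introns. Genes higher and lower numbered 527 and 532 with DESeq2, 15 to 909 and 25 to 869 with a library left out, and 1558 and 1596 without both replicate 3 libraries, a choice made after seeing the data. With the replicate block, which takes the numbers to pair the libraries, they were 299 and 326. Higher intron ratios, 0 as reported, numbered 1 with a pseudocount of 5, 1 with no filter, 0 to 1 with a library left out and 4 without both replicate 3 libraries, while lower ones ranged from 163 to 216 with a library left out and were 194 with the replicate block. Hosts whose gene reads exceed their intron reads in each library, also chosen after seeing the data, gave 201 lower. Intron levels were 4 higher and 11 lower with size factors of the introns, 0 to 7 higher and 66 to 175 lower with a library left out, and 12 higher without both replicate 3 libraries. For the difference of differences, 133 genes lay below 0 with total gene reads, 368 above and 411 below with the replicate block, and 8 to 203 above and 5 to 181 below without 1 replicate of all groups. Introns numbered 1 above with the replicate block and 50 to 138 below without 1 replicate. The total intron share differed by -0.324 points for genes other than ribosomal protein genes, -0.761 for ribosomal protein genes, -0.948 without the 5 introns with the most reads and -1.17 to -1.02 with a library left out. The cause of each change was not tested, except that leaving out libraries reduces the samples and a share of fewer introns is smaller by construction. The replicate block ended the call of SPL2, PRP31, THO2, CRR1 and MEI4 among the named genes and gave one to PHM6. Few simulated ratio changes of 1.5-fold were recovered (5%). Most introns were unchanged in that simulation, unlike here, so this value does not give the power of the real test. Differences of that size can still go uncalled.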
